A study of Mus musculus with 6 samples.

Results

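Granule cells of the dentate gyrus were followed through 10 genes whose RNA marks them in the mouse hippocampus, Prox1, C1ql2, Dsp, Calb1, Trpc6, Tdo2, Plk5, Pdzd2, Lct and Stxbp6. A probe set, the group of short probes that measures 1 transcript on the array, was taken as a member where it was annotated to exactly 1 of these symbols. This gave 23 of 45037 probe sets and 10 of 18193 measured genes. Each gene is described by the probe set that is brightest on average over the 6 arrays, and its other probe sets follow. The series holds 6 Affymetrix arrays of hippocampus RNA, and each sample record names 1 individual, while the labelling protocol speaks of pools, so each array is taken here as 1 mouse. Of these mice, 3 had the genotype Dp(11)17/+, in which part of chromosome 11 is duplicated on 1 homologue, in a line that the series title presents as a model of Potocki-Lupski syndrome, and 3 had the genotype +/+, called wild type here. The labels give all 6 as males aged 11 to 14 weeks with the background C57BL/6-Tyr c-Brd, and no drug, transgene or other agent is named. Values are on the log2 scale, so that a difference of 1 is a doubling of the array signal. None of the 10 genes lies on chromosome 11 in the gene table used.

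Granule cells are the principal neurons of the dentate gyrus, the field through which most cortical input enters the hippocampus. Their axons, the mossy fibres, end on CA3 pyramidal cells, and new granule cells are added in the adult from stem cells at the border of the layer. The homeobox factor Prox1 sets and keeps granule cell identity, and the other markers span a secreted synaptic protein, a calcium buffer, an ion channel, a partner of the exocytosis machinery, a junction protein and enzymes. In RNA of dissected tissue, fewer granule cells, less RNA per cell and a different make-up of the sampled tissue cannot be told apart.

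The arrays were alike in scale, with medians between 3.74 and 3.79, but the mice differed in markers of other tissue, and 1 went against its label. Dp(11)17/+ replicate 1, labelled male, had a log2 value of 9.13 for Xist, the RNA made from the inactive X chromosome of females, against 3.69 and 3.11 in the other Dp(11)17/+ mice and 3.06 to 3.21 in +/+ mice. That mouse was also low for the Y-linked genes Eif2s3y, at 2.48, and Kdm5d, at 2.47. All other mice had 5.41 to 6.01 for Eif2s3y and 4.70 to 5.06 for Kdm5d. Markers of striatum and of thalamus stood high in Dp(11)17/+ replicate 3, and those of striatum also in Dp(11)17/+ replicate 1, with values given below beside the granule cell genes. The excess of the 3' over the 5' actin control, a sign of RNA quality, was 1.69, 1.47 and 1.74 in Dp(11)17/+ replicates 1, 2 and 3, and 1.45 to 1.63 in +/+ mice. The part of these differences between mice in the results below was not tested. Precision is limited by the small number of arrays, 3 to a group.

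The 250 bases before the transcription start are shown here for Dsp, Lct, C1ql2 and Tdo2, the genes with the widest swing between mice. They are also shown for the granule cell regulator Prox1. Whether these bases bear on the differences between mice was not tested. The sequences are RefSeq's, build GRCm38.p6, read 5′ to 3′ on the gene's strand. Capitals mark the E-box CANNTG, the core recognised by basic helix-loop-helix factors such as NeuroD1 of granule cells. For Prox1 the farther upstream of its windows is shown.
Dsp: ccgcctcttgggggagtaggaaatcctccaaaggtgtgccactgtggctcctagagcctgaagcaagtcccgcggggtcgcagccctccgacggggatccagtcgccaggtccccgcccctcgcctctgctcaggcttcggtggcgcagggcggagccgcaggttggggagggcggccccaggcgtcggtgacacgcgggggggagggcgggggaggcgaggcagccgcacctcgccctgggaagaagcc
Lct: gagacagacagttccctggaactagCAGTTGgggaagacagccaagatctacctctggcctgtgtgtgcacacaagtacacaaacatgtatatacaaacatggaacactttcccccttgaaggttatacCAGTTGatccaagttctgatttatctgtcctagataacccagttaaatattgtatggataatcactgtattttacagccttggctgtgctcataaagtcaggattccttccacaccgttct
C1ql2: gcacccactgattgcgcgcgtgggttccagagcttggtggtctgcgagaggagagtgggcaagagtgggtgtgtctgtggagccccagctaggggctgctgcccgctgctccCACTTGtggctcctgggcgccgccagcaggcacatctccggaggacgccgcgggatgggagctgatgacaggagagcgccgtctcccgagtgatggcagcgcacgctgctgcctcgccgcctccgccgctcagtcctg
Tdo2: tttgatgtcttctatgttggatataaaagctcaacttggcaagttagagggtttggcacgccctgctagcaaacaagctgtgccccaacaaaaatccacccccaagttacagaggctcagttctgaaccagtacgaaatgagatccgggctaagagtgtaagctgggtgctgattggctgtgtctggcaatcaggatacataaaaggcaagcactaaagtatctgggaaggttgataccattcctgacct
Prox1: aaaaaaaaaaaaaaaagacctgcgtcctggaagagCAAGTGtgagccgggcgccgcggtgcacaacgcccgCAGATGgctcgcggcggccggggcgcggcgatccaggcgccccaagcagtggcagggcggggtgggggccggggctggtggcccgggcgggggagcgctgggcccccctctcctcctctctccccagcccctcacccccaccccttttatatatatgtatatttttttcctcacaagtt
The windows lie at chr13:38151044-38151293, strand +, for Dsp, chr1:128328319-128328568, strand -, for Lct, chr1:120340332-120340581, strand +, for C1ql2, chr3:81975729-81975978, strand -, for Tdo2 and chr1:190170828-190171077, strand -, for Prox1.

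The start regions of these genes differ in make-up, with a GC share of 72.4% for Dsp, 68.8% for C1ql2 and 64.8% for Prox1, against 46.4% for Tdo2 and 42.8% for Lct. Windows were held for 9 of the 10 genes, with 10 windows in all. On both strands, CANNTG was found in 5 of the 10 windows and in 66.2% of all 32851 windows of that length. The form CAGATG, which is also counted as CANNTG, was in 1 window, that of Prox1 shown above, and in 14.4% of all windows. The cAMP response element TGACGTCA was in 0 member windows and in 1.55% of all windows, and TATAAA in 2 member windows and in 12.4% of all. A match describes these letters only.

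The comparison of genotypes asked whether granule cell RNA differs between Dp(11)17/+ and +/+ hippocampus. Most of the markers had lower means in the duplication group, but the Dp(11)17/+ mice differed more among themselves than the +/+ mice did. Of the 10 genes, 8 were lower and 2 higher, and the median log2 fold change was -0.46, beside -0.02 over all measured genes, of which 58.3% were lower. By limma's moderated test with Benjamini-Hochberg adjustment over all probe sets, 0 of the 10 genes and 0 of their 23 probe sets passed an adjusted p of 0.05, beside 0% of the 45037 probe sets. At an unadjusted p under 0.05 there were 2 of the 10 genes, Trpc6 and Pdzd2, where 3.17% of all genes stood, and 2 of the 23 probe sets, where 2.82% of all probe sets stood. A plain equal-variance statistic called 0 members after adjustment and 0 at an unadjusted p under 0.05. The 2 groups overlapped in all 10 genes, while they did not overlap in 8.29% of all genes. The 2 unadjusted calls were 1 without Dp(11)17/+ replicate 1, and 0 without Dp(11)17/+ replicate 3, +/+ replicate 2 or +/+ replicate 3. No filter on low values was applied, and 6 of the 10 genes, C1ql2, Dsp, Calb1, Pdzd2, Lct and Stxbp6, averaged 6 or more on the log2 scale.

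**Figure D1:**
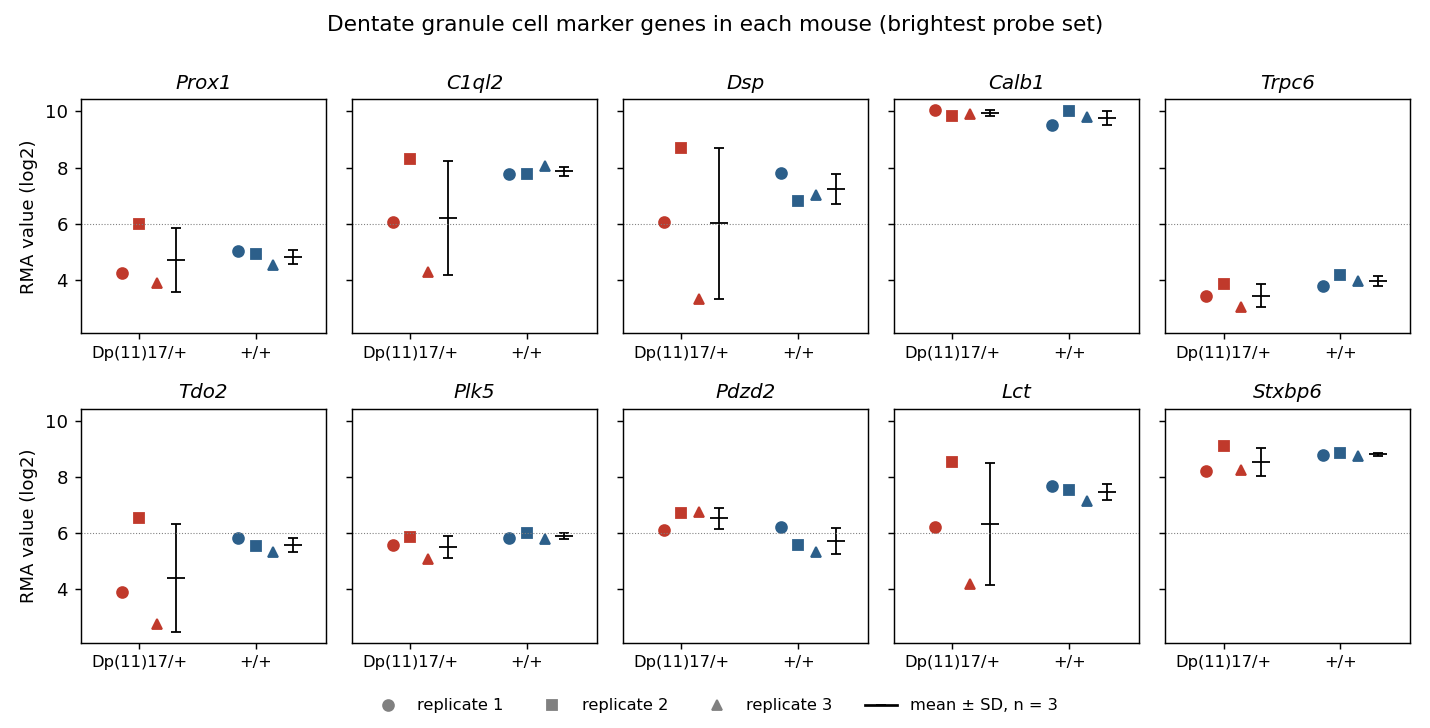
RMA values on the log2 scale (y axis, shared by all panels) of the 10 granule cell marker genes in each of 3 Dp(11)17/+ mice (red) and 3 +/+ mice (blue), with the mean and SD of each group in black and a dotted line at a log2 value of 6. In C1ql2, Dsp, Lct and Tdo2 the Dp(11)17/+ points spread over 3.75 to 5.36 units, while Calb1 sits between 9.52 and 10.04 in all 6 mice.

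Prox1, the transcription factor that specifies granule cells, was a dim gene on these arrays. Prox1 had log2 values of 4.27, 5.99 and 3.88 in Dp(11)17/+ replicates 1, 2 and 3, against 5.03, 4.91 and 4.53 in +/+ replicates 1, 2 and 3. The highest of the 6 mice was Dp(11)17/+ replicate 2, and the lowest were the other Dp(11)17/+ mice, with the +/+ mice between them. The group means were 4.71 ± 1.13 in Dp(11)17/+ and 4.82 ± 0.26 in +/+ mice (SD, n = 3 each), with a fold change on the log2 scale of -0.11 with an SE of 0.51 (limma, adjusted p = 0.998). Its 2 dimmer probe sets, with means of 3.11 and 3.05, also had Dp(11)17/+ replicate 2 as the highest mouse, and gave log2 fold changes of 0.12 and -0.13. In the first of them +/+ replicate 3 was the lowest mouse, at 2.76, below Dp(11)17/+ replicates 1 and 3 at 2.86 and 2.92. In the second the lowest was Dp(11)17/+ replicate 1.

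C1ql2 encodes a secreted C1q-like protein that mossy fibres release at their synapses, and it had the largest mean difference of the 10 genes. C1ql2 had log2 values of 6.05, 8.29 and 4.28 in Dp(11)17/+ replicates 1, 2 and 3, against 7.77, 7.76 and 8.06 in +/+ replicates 1, 2 and 3. The +/+ mice lay within 0.31 of each other, while Dp(11)17/+ replicate 3 was 12.01-fold and replicate 1 3.51-fold below the +/+ mean, and replicate 2 was 1.35-fold above it. The group means were 6.21 ± 2.01 in Dp(11)17/+ and 7.86 ± 0.17 in +/+ mice (SD, n = 3 each), with a fold change on the log2 scale of -1.66 with an SE of 0.88 (limma, adjusted p = 0.994). C1ql2 is measured by 1 probe set.

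Dsp encodes desmoplakin, which ties cell junctions to intermediate filaments and in the mouse hippocampus is used as a granule cell marker. Dsp had log2 values of 6.06, 8.69 and 3.33 in Dp(11)17/+ replicates 1, 2 and 3, against 7.82, 6.82 and 7.03 in +/+ replicates 1, 2 and 3. Its range over the 6 mice, 5.36, was the widest of the 10 genes. Against the +/+ mean, Dp(11)17/+ replicate 3 was 14.9-fold and replicate 1 2.24-fold lower, and replicate 2 was 2.76-fold higher. The value of replicate 3 lay below the median of that array, 3.76, and is not shown to be above background. The group means were 6.02 ± 2.68 in Dp(11)17/+ and 7.22 ± 0.53 in +/+ mice (SD, n = 3 each), with a fold change on the log2 scale of -1.20 with an SE of 1.19 (limma, adjusted p = 0.994). A second probe set had a range of 5.29 and followed the first with a root mean square difference of 0.09 over the 6 mice after each probe set's mean was taken off. The third probe set, with a mean of 2.99, had a range of 0.32.

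The enzymes Lct and Tdo2 repeated this order of mice. Lct encodes lactase, the disaccharidase best known from the gut. Lct had log2 values of 6.22, 8.52 and 4.18 in Dp(11)17/+ replicates 1, 2 and 3, against 7.68, 7.53 and 7.14 in +/+ replicates 1, 2 and 3. In array signal, Dp(11)17/+ replicate 3 was 9.63-fold and replicate 1 2.35-fold below the +/+ mean, and replicate 2 was 2.10-fold above it. Lct had a fold change on the log2 scale of -1.14 with an SE of 0.95 (limma, adjusted p = 0.994). Tdo2 encodes tryptophan dioxygenase, the first enzyme of the kynurenine pathway. Tdo2 had log2 values of 3.91, 6.53 and 2.78 in Dp(11)17/+ replicates 1, 2 and 3, against 5.83, 5.53 and 5.33 in +/+ replicates 1, 2 and 3. In Dp(11)17/+ replicate 3 it lay likewise below the array's median, and 6.87-fold below the +/+ mean, while replicate 2 was 1.95-fold above that mean. Tdo2 had a fold change on the log2 scale of -1.16 with an SE of 0.84 (limma, adjusted p = 0.994). The 2 other probe sets of Tdo2 were dimmer, with means of 3.18 and 2.79, and both had Dp(11)17/+ replicate 2 as the highest and replicate 3 as the lowest mouse. They gave log2 fold changes of 0.14 and -0.004, and in them Dp(11)17/+ replicate 1 lay at -0.02 and 0.02 from the +/+ mean, so they did not share the low value of that mouse.

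Stxbp6, which encodes amisyn, a protein that binds SNARE proteins of exocytosis, had a narrower range, with the same mice above and below wild type. Stxbp6 had log2 values of 8.22, 9.10 and 8.23 in Dp(11)17/+ replicates 1, 2 and 3, against 8.77, 8.86 and 8.75 in +/+ replicates 1, 2 and 3. The +/+ mice spanned 0.11 and the Dp(11)17/+ mice 0.88, with replicates 1 and 3 below and replicate 2 above all +/+ mice. Stxbp6 had a fold change on the log2 scale of -0.27 with an SE of 0.23 (limma, adjusted p = 0.994), and its dimmer probe set gave -0.27. Trpc6, a cation channel opened by diacylglycerol, was dim. Trpc6 had log2 values of 3.42, 3.86 and 3.04 in Dp(11)17/+ replicates 1, 2 and 3, against 3.80, 4.16 and 3.97 in +/+ replicates 1, 2 and 3. Its fold change on the log2 scale of -0.54 with an SE of 0.21 (limma, adjusted p = 0.994) went with an unadjusted p of 0.0333, and the groups overlapped, since Dp(11)17/+ replicate 2 lay above +/+ replicate 1. Plk5, a brain-expressed member of the polo-like kinase family, was between these genes in spread. Plk5 had log2 values of 5.57, 5.87 and 5.07 in Dp(11)17/+ replicates 1, 2 and 3, against 5.84, 6.00 and 5.80 in +/+ replicates 1, 2 and 3. It had a fold change on the log2 scale of -0.38 with an SE of 0.20 (limma, adjusted p = 0.994), and again Dp(11)17/+ replicate 2 lay within the +/+ range while the other Dp(11)17/+ mice lay below it.

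Calb1 and Pdzd2 did not follow the other 8 genes. Calb1 encodes calbindin, a calcium buffer that granule cells hold in quantity and that CA1 pyramidal cells, some interneurons and striatal neurons also make. Calb1 had log2 values of 10.04, 9.83 and 9.92 in Dp(11)17/+ replicates 1, 2 and 3, against 9.52, 9.997 and 9.79 in +/+ replicates 1, 2 and 3. All 6 mice lay within 0.52, and the fold change on the log2 scale of 0.16 with an SE of 0.13 (limma, adjusted p = 0.994) had a 95% confidence interval of -0.16 to 0.48. Its 3 dimmer probe sets gave log2 fold changes of 0.05 to 0.19. Pdzd2 encodes a protein with several PDZ domains. Pdzd2 had log2 values of 6.10, 6.70 and 6.76 in Dp(11)17/+ replicates 1, 2 and 3, against 6.23, 5.58 and 5.32 in +/+ replicates 1, 2 and 3. Here Dp(11)17/+ replicate 3, the lowest mouse for most of the markers, was the highest, and +/+ replicate 1 lay above Dp(11)17/+ replicate 1. Pdzd2 had a fold change on the log2 scale of 0.81 with an SE of 0.27 (limma, adjusted p = 0.994), or 1.76-fold, with an unadjusted p of 0.0182. Its 3 dimmer probe sets gave -0.04, 0.15 and -0.02. That at 0.15 was the 1 probe set of the 23 whose groups did not overlap, beside 8.01% of all probe sets. How these genes vary over the mice cannot show which cells they mark. The mean of the CA1 pyramidal markers had a like order, at -0.60, 0.32 and -1.67 from its +/+ mean in Dp(11)17/+ replicates 1, 2 and 3. Calb1 and Pdzd2 did not share that order.

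Counted over the genes, Dp(11)17/+ replicates 1 and 3 both lay below every +/+ mouse for 8 of the 10, all but Calb1 and Pdzd2, where 16.1% of all measured genes did so. Taken singly, replicate 3 lay below every +/+ mouse for 8 genes, against 32.1% of all genes, and replicate 1 for 8, against 29.5%. Dp(11)17/+ replicate 2 lay above every +/+ mouse for 7 of the 10, against 21.7% of all genes, and below every +/+ mouse for 0. It was the highest of the 6 mice for 6 genes, against 16.8% of all genes, and replicate 3 the lowest for 7, against 22.8%. The medians over the 10 genes of each Dp(11)17/+ mouse's difference from the +/+ mean were -0.57, 0.70 and -0.94 for replicates 1, 2 and 3, beside -0.03, -0.02 and -0.03 over all genes.

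**Figure D2:**
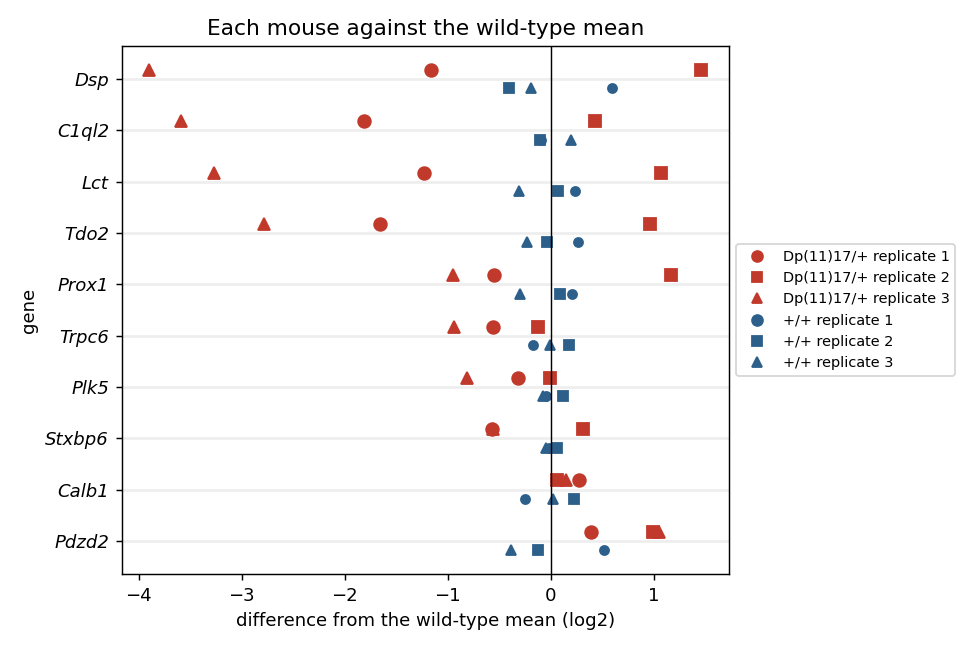
Difference of each mouse from the +/+ mean on the log2 scale (x axis) for the 10 genes (y axis, ordered by Dp(11)17/+ replicate 3), with Dp(11)17/+ mice in red above and +/+ mice in blue below each line. Triangles of Dp(11)17/+ replicate 3 reach -3.90 for Dsp and -3.59 for C1ql2, and squares of replicate 2 reach 1.46 for Dsp and 1.17 for Prox1.

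The spread inside the duplication group was wide for these genes. The median SD over the 10 genes was 0.82 among Dp(11)17/+ mice and 0.24 among +/+ mice, and over all genes 0.12 and 0.12. The Dp(11)17/+ SD was the larger in 8 of the 10, beside 51.8% of all genes, and Calb1 and Pdzd2 were again the exceptions. A range of at least 3 over the 6 mice was reached by 4 of the 10 genes, Dsp, Lct, C1ql2 and Tdo2, and by 54 of 18193 measured genes. Between-mouse spread of this size leaves wide intervals, such as -3.99 to 1.59 for Dsp and -3.72 to 0.41 for C1ql2 on the log2 scale.

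The group differences depended on single duplication mice. Without Dp(11)17/+ replicate 2, C1ql2 had a log2 fold change of -2.70 (95% confidence interval -3.86 to -1.54), Dsp of -2.53, Lct of -2.25 and Tdo2 of -2.22. In that fit 8 of the 10 genes had an unadjusted p under 0.05, all but Calb1 and Pdzd2, where 8.15% of all genes stood. By limma with Benjamini-Hochberg adjustment 0 passed, with a smallest adjusted p among the members of 0.575, beside 0% of all probe sets. Without Dp(11)17/+ replicate 3, the log2 fold change of C1ql2 was -0.69, that of Lct -0.08 and that of Tdo2 -0.34, while those of Dsp and Prox1 turned positive, to 0.15 and 0.31. Without Dp(11)17/+ replicate 1, the mouse with Xist, C1ql2 had -1.58, Dsp -1.22, Lct -1.10, Tdo2 -0.91 and Prox1 0.11. Pdzd2 stayed higher in each of these fits, at 0.69 to 1.02.

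**Figure D3:**
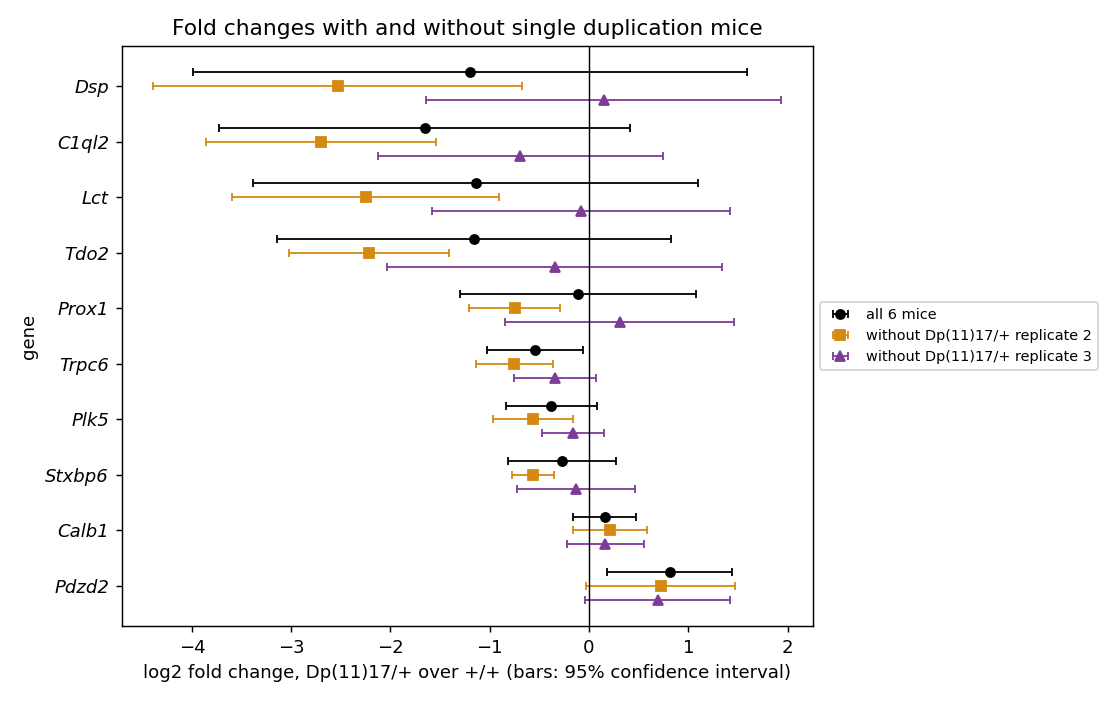
Log2 fold change of Dp(11)17/+ over +/+ (x axis) with its 95% confidence interval for each gene (y axis), with all 6 mice in black, without Dp(11)17/+ replicate 2 in orange and without Dp(11)17/+ replicate 3 in purple. For Dsp the value is -1.20 with all mice, -2.53 without replicate 2 and 0.15 without replicate 3, while Calb1 stays between 0.16 and 0.21.

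Other genes known from granule cells were counted as a wider list of 18. By mean they were lower in 13 and higher in 5, where 58.3% of all genes were lower, and their median log2 fold change was -0.15. Limma called 0 after adjustment, beside 0% of all genes. At an unadjusted p under 0.05 there were 0, where 3.17% of all genes stood. Below every +/+ mouse lay Dp(11)17/+ replicate 3 for 13 of the 18 and replicate 1 for 10, and replicate 2 lay above every +/+ mouse for 12, where 32.1%, 29.5% and 21.7% of all genes did so. Ahcyl2, a partner of the IP3 receptor, had log2 values of 9.25, 9.92 and 9.22 in Dp(11)17/+ replicates 1, 2 and 3, against 9.75, 9.38 and 9.68 in +/+ mice. Bcl11b, a zinc finger factor of granule cells, CA1 and striatum, had log2 values of 9.03, 9.72 and 7.95 in Dp(11)17/+ replicates 1, 2 and 3, against 9.18, 9.16 and 8.999 in +/+ mice. Both had Dp(11)17/+ replicate 2 as the highest and replicate 3 as the lowest mouse. Not all of the list did so. Replicate 3 lay above every +/+ mouse for 1 of the 18, Gabrd, a GABA-A receptor subunit gene with a mean of 6.73. Gabrd lay at 0.39, -0.42 and 1.68 from its +/+ mean in Dp(11)17/+ replicates 1, 2 and 3.

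Genes of young granule cells and of neurogenesis were split in direction. Of 10 measured, 5 were higher and 5 lower, at a median log2 fold change of 0.01, where 58.3% of all genes were lower. After adjustment limma called 0, beside 0% of all genes, and 0 stood at an unadjusted p under 0.05, beside 3.17% of all genes. Of the 10, 4 averaged 6 or more on the log2 scale. Hopx, which marks stem cells of the granule layer and astrocytes, had log2 values of 9.91, 10.57 and 8.90 in Dp(11)17/+ replicates 1, 2 and 3, against 10.49, 10.16 and 10.41 in +/+ mice. Sox4, a factor of differentiating neurons, had log2 values of 8.17, 8.67 and 8.12 in Dp(11)17/+ replicates 1, 2 and 3, against 8.20, 8.15 and 7.84 in +/+ mice. For 8 of the 10, all but Nes and Top2a, Dp(11)17/+ replicate 2 again lay above every +/+ mouse, where 21.7% of all genes did so. The proliferation genes Mki67 and Top2a were dim and stayed between 3.58 and 3.996 in all 6 mice.

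Markers of other fields and of neighbouring tissue differed in the same mice. The mean over the 10 granule cell markers differed from its +/+ mean by -0.72, 0.63 and -1.56 in Dp(11)17/+ replicates 1, 2 and 3, with the single +/+ mice at -0.13 to 0.12. Over 9 CA1 pyramidal markers these differences were -0.60, 0.32 and -1.67, with +/+ mice at -0.10 to 0.21. All 9 had lower group means, beside 58.3% of all genes. Over 11 striatal markers the differences were 1.17, -0.16 and 1.97, with +/+ mice at -0.25 to 0.43. Dp(11)17/+ replicates 1 and 3 both lay above every +/+ mouse for all 11. Taken singly, replicate 1 did so for 18.2% of all genes and replicate 3 for 23.4%. Over 10 markers of thalamus and habenula the differences were -0.001, -0.07 and 2.55, with +/+ mice at -0.33 to 0.21. Dp(11)17/+ replicate 3 lay above every +/+ mouse for all 10, beside 23.4% of all genes. Their part in the granule cell values was not tested. Limma called 0 genes of these lists after adjustment, beside 0% of all genes. At an unadjusted p under 0.05 there were 0 in the CA1, striatal and thalamic lists, where 3.17% of all genes stood.

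In absolute terms, the mean log2 value of the striatal list ran from 5.42 to 7.54 in Dp(11)17/+ mice and 5.32 to 6.00 in +/+ mice, and 6 of its 11 genes had a mean of 6 or more. Its brightest genes encode neuropeptide precursors. Penk, which granule cells can also express, had log2 values of 10.12, 6.92 and 9.996 in Dp(11)17/+ replicates 1, 2 and 3, against 7.21, 8.98 and 6.68 in +/+ mice. Tac1 had log2 values of 9.40, 7.25 and 9.42 in Dp(11)17/+ replicates 1, 2 and 3, against 7.19, 8.73 and 7.43 in +/+ mice. Both were high in Dp(11)17/+ replicates 1 and 3 and, among +/+ mice, in replicate 2. For the thalamic list the mean ran from 4.93 to 7.55 in Dp(11)17/+ mice and 4.67 to 5.21 in +/+ mice. Rora, a nuclear receptor gene, had log2 values of 7.22, 6.31 and 9.09 in Dp(11)17/+ replicates 1, 2 and 3, against 7.24, 6.93 and 6.51 in +/+ mice. Plekhg1 had log2 values of 6.37, 7.44 and 8.75 in Dp(11)17/+ replicates 1, 2 and 3, against 6.91, 6.59 and 6.67 in +/+ mice. Both were highest in Dp(11)17/+ replicate 3. For the CA1 list the mean ran from 6.19 to 8.19 in Dp(11)17/+ mice and 7.76 to 8.07 in +/+ mice. Wfs1, a membrane protein of the endoplasmic reticulum in CA1 cells, had log2 values of 9.19, 9.56 and 7.56 in Dp(11)17/+ replicates 1, 2 and 3, against 8.92, 9.38 and 9.09 in +/+ mice. Ccn3 had log2 values of 8.98, 7.92 and 7.67 in Dp(11)17/+ replicates 1, 2 and 3, against 7.92, 8.81 and 9.03 in +/+ mice. Both were lowest in Dp(11)17/+ replicate 3. Striatal and thalamic lists were high in Dp(11)17/+ replicate 3, in which the granule cell list was lowest, and near the +/+ level in replicate 2, in which the granule cell list was highest. In Dp(11)17/+ replicate 1 the granule cell, striatal and thalamic lists lay at -0.72, 1.17 and -0.001 from their +/+ means. In +/+ replicate 2 the striatal list lay at 0.43 and the granule cell list at 0.01. A link between these lists was not tested.

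**Figure D4:**
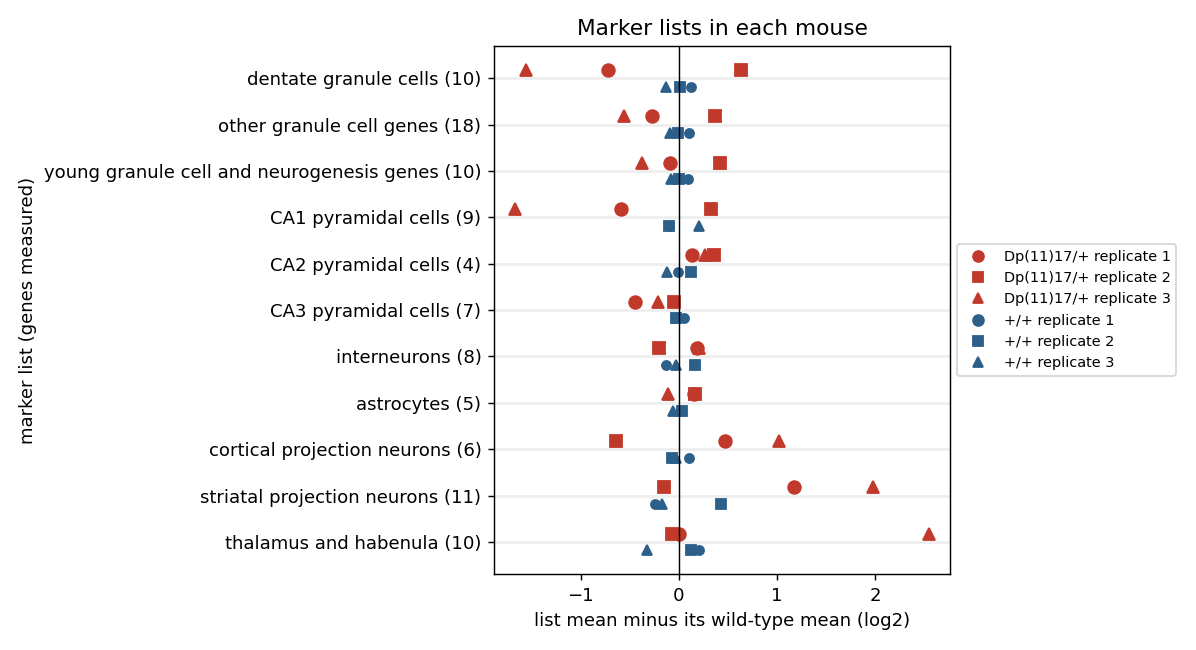
Mean of each marker list minus its +/+ mean on the log2 scale (x axis) in each mouse, with the number of measured genes beside the list's name (y axis), Dp(11)17/+ mice in red above and +/+ mice in blue below each line. Dp(11)17/+ replicate 3 lies at -1.56 for dentate granule cells and at 2.55 for thalamus and habenula, and replicate 2 at 0.63 and -0.07.

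The lists of the other fields and cell types were placed beside the granule cell markers in the same way. The list of 7 CA3 markers lay at -0.44, -0.05 and -0.21 from its +/+ mean in Dp(11)17/+ replicates 1, 2 and 3, at a median log2 fold change of -0.31, and its brightest genes Cpne4 and Bok had log2 fold changes of -0.57 and -0.08. The 4 CA2 markers lay at 0.13, 0.36 and 0.26, with log2 fold changes of 0.64 for Pcp4 and -0.41 for Rgs14. Single +/+ mice lay at -0.03 to 0.05 for CA3 and at -0.12 to 0.13 for CA2. In Dp(11)17/+ replicate 2 the CA3 genes had a median difference of 0.05, on the other side of 0 from their mean, with Coch at -0.92, and for CA2 replicate 1 was level with the highest +/+ mouse. The 8 interneuron markers lay at 0.18, -0.20 and 0.21, with Sst at -0.002 and Gad1 at -0.11, and the 5 astrocyte markers at 0.15, 0.17 and -0.11, with Slc1a2 at 0.16 and Gfap at -0.39, given as log2 fold changes here and in what follows. The mean of neither list lay more than 0.21 from its +/+ mean in any Dp(11)17/+ mouse. Single +/+ mice lay at -0.13 to 0.16 for interneurons and -0.06 to 0.04 for astrocytes. Single genes lay further off, in both directions. In Dp(11)17/+ replicate 3, Npy lay at 0.97, Pvalb at 0.94 and Gfap at -1.19 from the gene's +/+ mean. In replicate 1, Npy lay at 0.64 and Pvalb at -0.61. The 6 markers of cortical projection neurons lay at 0.46, -0.64 and 1.02, with +/+ mice at -0.07 to 0.10, Lamp5 at 0.16 and Ccn2 at 0.52. The list mean thus stood in the opposite order of mice to the granule cell list, but Fezf2, a factor of deep-layer neurons, did not, at -0.84, -0.20 and -1.33 from its +/+ mean in Dp(11)17/+ replicates 1, 2 and 3. The 3 mossy cell markers were all dim, with means of 2.91 to 4.83, and lay at 0.005, 0.05 and -0.04, with Nmb at -0.08 and Calcrl at 0.10. Choroid plexus markers were uneven in both groups, at 1.38, -0.94 and 1.35 in Dp(11)17/+ mice and -1.22 to 2.28 in +/+ mice, with Ttr at 1.76 and Folr1 at 0.36, and the highest single mouse was in the +/+ group. Oligodendrocyte markers lay at -0.03, 0.27 and 0.59, with Mbp at 0.15 and Mobp at 0.30, and microglial markers at 0.44, 0.12 and 0.10, with Csf1r at 0.24 and C1qa at 0.09. No list had a gene past limma's adjusted threshold. At an unadjusted p under 0.05 there were 5 genes in these lists, where 3.17% of all genes stood. They were 1 of 7 for CA3 (Cpne4, -0.57), 1 of 4 for CA2 (Cacng5, 0.72) and 1 of 6 for cortex (Fezf2, -0.79). The microglial list had 2 of 5, Csf1r at 0.24 and P2ry12 at 0.35, and the other lists of this paragraph had 0.

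Among themselves, the 10 genes were compared in pairs. Likeness was measured as the root mean square difference over the 6 mice between the profiles of 2 genes, each with its own mean over the arrays taken off, and is a description over arrays that all genes share. Profiles were not scaled, so genes with a narrow range can lie close although their order of mice differs. Calb1 and Plk5 lay at 0.39, as did Dsp and Lct. Trpc6 and Plk5 were the closest pair, at 0.11, followed by Plk5 and Stxbp6, at 0.19. Tdo2 and Lct, at 0.27, and C1ql2 and Lct, at 0.38, were the closest among the genes with a wide range. Dsp and Pdzd2 were farthest apart, at 1.88. The profile averaged over the 10 genes stood at -0.45, 0.91 and -1.28 in Dp(11)17/+ replicates 1, 2 and 3, and at 0.40, 0.28 and 0.14 in +/+ replicates 1, 2 and 3. Prox1 was the member closest to the mean of the other 9, at 0.30.

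Of 7098 other genes that averaged 6 or more on the log2 scale, those nearest to this averaged profile were Bcl6, a transcriptional repressor, at a root mean square difference of 0.15, Orai2, a subunit of calcium release-activated channels, at 0.15, the ephrin receptor gene Epha7 at 0.16, the leucine zipper factor Cebpd at 0.16 and the AMPA receptor gene Gria1 at 0.18. Bcl6 had log2 values of 6.84, 8.04 and 6.31 in Dp(11)17/+ replicates 1, 2 and 3, against 7.84, 7.54 and 7.54 in +/+ mice. Epha7 had log2 values of 7.40, 8.72 and 6.21 in Dp(11)17/+ replicates 1, 2 and 3, against 8.29, 8.08 and 7.66 in +/+ mice. Both were highest in Dp(11)17/+ replicate 2 and lowest in replicate 3, and Epha7 is also in the wider list of granule cell genes. Nearest to the profile with its sign turned were Kitl, the ligand of the Kit receptor, at 0.16, the histamine receptor gene Hrh3 at 0.20, the olfactomedin gene Olfm2 at 0.20, the AMPA receptor gene Gria4 at 0.21 and Ipcef1 at 0.22. Kitl had log2 values of 7.77, 6.85 and 8.58 in Dp(11)17/+ replicates 1, 2 and 3, against 6.99, 7.29 and 7.23 in +/+ mice. These genes were picked by their profile, so their values are a description and carry no test.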

How the data were processed

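RNA labelled as hippocampus was hybridized to Affymetrix arrays in 1 colour, and each array was taken as 1 mouse. The deposited values are log2 values, 1 per probe set, made by the authors with RMA, per the submitters' processing notes. RMA corrects background, applies quantile normalization over arrays and summarises probes. Its version and a genome build are not given in the sources used here, and the table has no detection calls, so dim values cannot be marked as absent. The extraction protocol in the labels names other organs, and the sample records name hippocampus. Quantile normalization fixes each array's distribution, so a change shared by most genes is not seen.

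The values were used as deposited, with 64 control probe sets left out and 45037 kept, of which 34945 had 1 gene symbol, 932 several and 9160 none in the platform annotation. Chromosomes come from a gene table of GRCm38.p6. Groups were compared with limma 3.58.1 under R 4.3.3 (lmFit, then eBayes without trend, no covariate), two-sided, with 7.11 degrees of freedom, and Benjamini-Hochberg adjustment over all probe sets at 0.05. The fit was tested on simulated data. The sample records name 1 individual per array, the labelling protocol speaks of pools, and litter or batch is not given. Each of the 6 samples was taken as 1 mouse. Limma's p-values set a group difference against the spread within the groups of these samples, moderated over all probe sets. Replicate numbers follow the order of the records and are names only. The members and lists were chosen with earlier results of these data known. The text names all 10 members, the 5 nearest genes to their averaged profile and to its turned form, and the 2 brightest genes of each other list. Mki67, Top2a, Nes, Coch, Cacng5, Fezf2, P2ry12, Npy, Pvalb and Gabrd were named after their values were seen. Alternatives were other scalings, filters on dim probe sets, other variance models, other probe set choices, other thresholds and single mice left out.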

Additional observations from a re-analysis of the deposited data

How the results depend on the processing

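Under a second quantile normalization, array medians set equal, cyclic loess, the plain statistic, the mean over a gene's probe sets and the probe set with the largest SD, all 10 genes kept their direction and none passed adjustment. The mean over probe sets gave smaller log2 fold changes of 0.22 for Pdzd2, -0.34 for Tdo2, -0.04 for Prox1 and -0.79 for Dsp. With each of the 6 mice left out in turn, the 10 genes' median log2 fold change ran from -0.75 (without Dp(11)17/+ replicate 2) to -0.11 (without Dp(11)17/+ replicate 3), 6 to 8 of them were lower, and 0 members and 0 of all probe sets passed. Over these fits Prox1 ran from -0.75 to 0.31, Dsp from -2.53 to 0.15, C1ql2 from -2.70 to -0.69, Lct from -2.25 to -0.08 and Tdo2 from -2.22 to -0.34. With Dp(11)17/+ replicate 2 standing alone for its group, the median was 0.70, 2 of 10 were lower, and the sign turned for Prox1 (1.17), C1ql2 (0.43), Dsp (1.46), Tdo2 (0.97), Lct (1.07) and Stxbp6 (0.31). That fit has 1 mouse in the group, so sizes alone are given. Keeping probe sets with a mean of at least 6 or 5 left 6 or 7 of the 10 genes, of which 4 and 5 were lower. Over all probe sets, 1 passed with an intensity trend and robust prior, 1 with array weights and 1 at an adjusted p under 0.1, none of them a member. At an unadjusted p under 0.05 there were 1272 probe sets, 2 of them of the 10 genes. The causes were not tested. No paired analysis was possible because the labels number the mice by individual only and tie no Dp(11)17/+ mouse to a +/+ mouse. The table gives no detection calls, so how far the dim values of Trpc6, Prox1 and Tdo2, and of Dsp in Dp(11)17/+ replicate 3, rise above background is not known.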
